A study of Mus musculus with 12 samples.

Results

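Genes that mark the somatic cells around and between the seminiferous tubules were followed through a pull-down of the LINE-1 protein ORF1p from mouse testis. The set holds 10 genes of 20981 in the tables: Acta2, Myh11, Tagln and Cnn1 of smooth muscle-type cells, Pecam1 and Vwf of the vessel lining, and Csf1r, Adgre1, Cd68 and Lyz2 of macrophages. They were chosen as markers of cells in which ORF1p has not been reported, by a rule that uses no measured value, though with earlier results of these data known. Of the 10, 9 were listed under their own symbol and Adgre1 under its older symbol Emr1.

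The testes came from C57BL/6 mice of 3 months, and every group, controls included, carried Mael-/-, the loss of Maelstrom, a factor needed to make the small RNAs that silence transposons in germ cells. TOTAL is RNA of the testis extract, INPUT is RNA of sucrose gradient fractions 5 to 8 run in 10 mM EDTA, IP is RNA that an anti-ORF1p antibody on beads took out of INPUT, and BO is RNA held from INPUT by beads without antibody. Each of the 4 groups had 3 libraries, 12 in all, made from rRNA-depleted total RNA. The gene tables hold 1 mean of normalized reads per group, so no value per library is given for TOTAL, INPUT or BO. The labels do not say whether libraries came from separate animals, there was no wild-type group, and the whole organ was lysed, so fewer cells of a type and less RNA per cell cannot be told apart.

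Peritubular myoid cells wrap the seminiferous tubule and contract with the same actin and myosin machinery as the smooth muscle of vessels. Endothelial cells line the vessels that run between the tubules, and testicular macrophages lie in the interstitium beside Leydig cells and against the tubule wall. ORF1p is an RNA-binding protein encoded by LINE-1, which in Mael-/- testis accumulates in cytoplasmic bodies of spermatocytes, the germ cells in meiosis.

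RNA of all 10 marker genes was found in IP at a higher normalized level than on beads alone, but for 8 of the 10 at a lower level than in the fractions the pull-down started from. Their median log2 ratio of IP over BO was 1.02, against 0.81 over 13634 genes, and relative to that median gene Acta2 and Cnn1 stood slightly below 0, at -0.09 and -0.08. Their median of IP over INPUT was -1.39, against 0.15 over 14400 genes. Myh11 and Pecam1 stood apart from the other 8, at 0.32 and 0.43 over INPUT, although with groups scaled to the sum of their gene means they stood at -0.22 and -0.09. A log2 ratio here is taken of the authors' group means plus 1, for genes whose 2 means average at least 10. A gene is called where the ratio reaches 1 in either direction, a 2-fold difference. The tables give no values per library for TOTAL, INPUT or BO, so the ratios are described without a test, and the authors' own fold changes and p-values were not used. Normalized reads compare relative levels under the authors' scaling, not amounts of RNA recovered. TOTAL, INPUT and BO means are each given on the scale of their own table, and the tables were normalized separately.

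Because the same 3 IP libraries enter all 3 tables under different scaling, their whole reads could be recovered for each member, and the spread between IP libraries is given from these. The 3 libraries held about 19750000, 20550000 and 21390000 reads on genes, and which replicate each one is was not established. The intervals given for ratios are exact 95% intervals of Clopper-Pearson type on the fewest reads that each mean allows. They cover counting error only, not the spread between samples. For scale, summed LINE-1 loci of the L1Md_A subfamily were 3159 in BO and 11395 in IP, a log2 ratio of 1.85, and 4580 in INPUT and 14926 in IP, a log2 ratio of 1.70. Mael itself had means of 0.50 in BO, 0.65 in TOTAL and 0 in INPUT and IP.

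**Figure D1:**
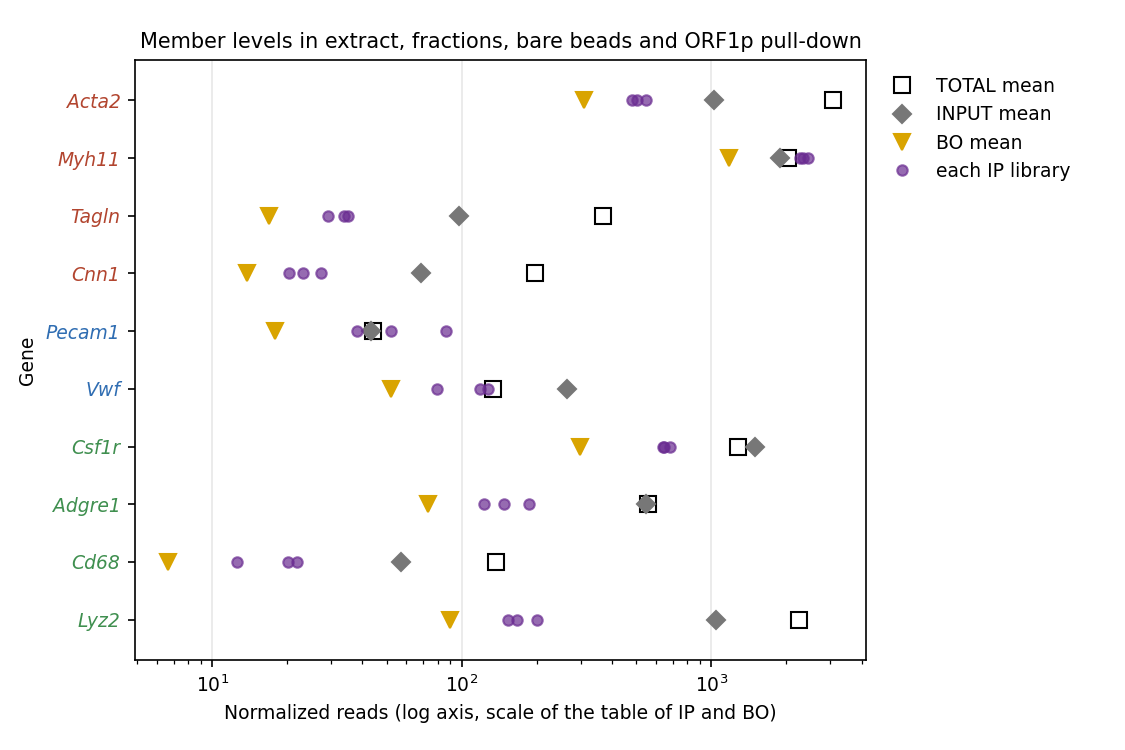
Levels of the 10 genes on a log axis in normalized reads, put on the scale of the table of IP and BO; squares are TOTAL means, diamonds INPUT means, triangles BO means and circles single IP libraries. Each IP library lies above the BO mean for all 10 genes, and the circles lie left of the diamond for all but Myh11 and Pecam1.

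All 4 smooth muscle genes were present in the extract, as were the vessel and macrophage members. Per kilobase of the longest annotated transcript, the TOTAL mean was 1972 for Acta2, 404 for Myh11, 300.2 for Tagln and 108 for Cnn1. These genes encode the contractile apparatus: Acta2 the smooth muscle actin, Myh11 the smooth muscle myosin heavy chain, Tagln the actin-binding protein transgelin and Cnn1 calponin, which binds actin and tropomyosin. With the median transcript in place of the longest, Acta2 stood at 2805 per kilobase, Tagln at 513, Myh11 at 418 and Cnn1 at 297, so only the order of Tagln and Myh11 depends on the transcript chosen.

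Acta2 (ENSMUSG00000035783.9, chr19:34241090-34255590 in mm10, minus strand) had an authors' mean of 4013 in TOTAL. In the table with INPUT, its mean was 1338 in INPUT and 669 in IP. In the table with BO, its mean was 309 in BO, and the 3 IP libraries stood at 482, 501 and 547. All 3 IP libraries were above the BO mean and below the INPUT mean, and they differed from each other by at most 1.14-fold. The log2 ratio was 0.72 over BO (0.59 to 0.85), -0.999 over INPUT (-1.08 to -0.92) and -2.59 over TOTAL (-2.66 to -2.52). The ratio over INPUT fell just short of a call.

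Actins are encoded by a family of close genes, so reads of one can be assigned to another or dropped as multimapped. None of the 1961 stretches of 75 bases, the read length, in the longest Acta2 transcript occurred in an annotated transcript of another gene. The nearest coding stretch within 1 exon was shared with Actg1, a cytoplasmic actin gene, and is shown since it marks how few bases separate the reads of these genes. Capitals mark the 3 bases that differ, Acta2 at chr19:34243323-34243397 and Actg1 at chr11:120346643-120346717, both on the minus strand of mm10 and read from GENCODE M21 transcripts.
Acta2: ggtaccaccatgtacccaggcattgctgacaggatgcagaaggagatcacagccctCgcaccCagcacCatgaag
Actg1: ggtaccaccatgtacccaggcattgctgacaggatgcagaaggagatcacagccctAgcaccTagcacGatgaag

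Myh11 (ENSMUSG00000018830.10, chr16:14194535-14291372, minus strand) behaved otherwise. Its mean was 2645 in TOTAL. In the table with INPUT it was 2473 in INPUT and 3083 in IP, and in the table with BO it was 1172 in BO with IP libraries at 2264, 2337 and 2448. All 3 IP libraries lay above the BO, INPUT and TOTAL means as deposited. In log2 ratios IP was at 1.003 over BO (0.94 to 1.07), 0.32 over INPUT (0.27 to 0.36) and 0.21 over TOTAL (0.17 to 0.26). With 8144 reads in IP, Myh11 rests on more reads than any other member. With groups scaled to the sum of gene means, the ratio of Myh11 over TOTAL turned to -0.30. Its ratio over BO only just passed the 2-fold line.

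Tagln (ENSMUSG00000032085.5, chr9:45929619-45936058, minus strand) had means of 479 in TOTAL and 128 in INPUT. The BO mean was 16.9, and the IP libraries stood at 29.1, 33.7 and 35.1, from 114 reads in all. All 3 lay above the BO mean and below the INPUT mean. The log2 ratio was 0.91 over BO (0.35 to 1.51), -1.56 over INPUT (-1.87 to -1.26) and -3.46 over TOTAL (-3.75 to -3.19), so IP held Tagln at a level 11-fold lower than the extract. Exons of Gm48529 on the opposite strand cover 62.4% of its exon bases. The libraries mark strand, but whether counting used it is not given in the sources used here.

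Cnn1 (ENSMUSG00000001349.5, chr9:22099216-22109630, plus strand) had means of 258 in TOTAL and 89.6 in INPUT. Its BO mean was 13.8, and the IP libraries stood at 20.4, 23.1 and 27.3, from 82 reads in all. Every IP library was again above BO and below INPUT. As log2 ratios, IP stood at 0.74 over BO (0.10 to 1.41), -1.50 over INPUT (-1.88 to -1.14) and -3.03 over TOTAL (-3.37 to -2.70). Acta2, Tagln and Cnn1 thus shared one pattern, which Myh11 did not.

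Among the vessel genes, the adhesion molecule Pecam1 and the clotting protein gene Vwf also differed from each other. Pecam1 (ENSMUSG00000020717.19, chr11:106654217-106750628, minus strand) was the lowest member in the extract, with a TOTAL mean of 57.7, or 16.8 per kilobase. Its mean was 56.6 in INPUT and 76.8 in IP of that table. The BO mean was 17.9, and the IP libraries stood at 38.1, 51.9 and 86.3. These 3 libraries spread 2.27-fold, the widest of the 10 members, and 1 of them lay below the INPUT mean and 2 above it. The log2 ratio was 1.66 over BO (1.14 to 2.21), 0.43 over INPUT (0.13 to 0.74) and 0.41 over TOTAL (0.11 to 0.71). With groups scaled to the sum of gene means, the ratio over TOTAL turned to -0.10. Taken singly, the IP libraries ran from -0.16 to 0.98 over the INPUT mean on the log2 scale. The excess over INPUT is therefore within the spread between IP libraries, whereas the lowest IP library still exceeded BO by 1.09.

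Vwf (ENSMUSG00000001930.17, chr6:125546774-125686679, plus strand) encodes von Willebrand factor, and its transcript of 8834 nt is the longest of the set. Its mean was 347 in INPUT and 174 in TOTAL, each in its own table. The BO mean was 52.1, and the IP libraries stood at 79.5, 118 and 127, from 382 reads. All 3 were above BO and below INPUT. For Vwf the log2 ratio of IP was 1.04 over BO (0.72 to 1.37), -1.28 over INPUT (-1.45 to -1.11) and -0.30 over TOTAL (-0.50 to -0.11). Vwf was thus called lower against the fractions and not against the extract.

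Each of the 4 macrophage genes was at least 2-fold lower in IP than in INPUT, as were 14.6% of all genes tested, with log2 ratios from -2.59 to -1.19. Against TOTAL 3 of the 4 were 2-fold lower, as were 26.2% of all genes, with ratios from -3.69 to -0.96. Csf1r (ENSMUSG00000024621.16, chr18:61100598-61132149, plus strand), the receptor for the growth factor that macrophages need to survive, had means of 1665 in TOTAL, 1962 in INPUT and 861 in IP of the INPUT table. Its BO mean was 297, and the IP libraries stood at 641, 645 and 683. They differed by only 1.07-fold, and all lay above the BO mean and below the INPUT mean. The log2 ratio was 1.14 over BO (1.01 to 1.28), -1.19 over INPUT (-1.26 to -1.12) and -0.96 over TOTAL (-1.03 to -0.89). Exons of Hmgxb3 on the opposite strand cover 15.1% of the exon bases of Csf1r.

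Adgre1 (ENSMUSG00000004730.15, chr17:57358691-57483527, plus strand), which encodes the surface receptor F4/80, had nearly equal means of 727 in TOTAL and 718 in INPUT. Its BO mean was 73.1, and the IP libraries stood at 123, 147 and 186. All lay above BO and well below INPUT. Its log2 ratios in IP were 1.05 over BO (0.78 to 1.32), -1.84 over INPUT (-1.99 to -1.71) and -1.86 over TOTAL (-2.003 to -1.73).

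Cd68 (ENSMUSG00000018774.13, chr11:69664213-69666153, minus strand), a glycoprotein of lysosomes, was the scarcest member in IP and BO. Its means were 179 in TOTAL, 74.7 in INPUT and 6.67 in BO, the last resting on 14 to 27 reads. The IP libraries stood at 12.6, 20.1 and 21.8, from 64 reads, and each was above BO and below INPUT. The log2 ratio was 1.32 over BO (0.47 to 2.27), -1.60 over INPUT (-2.03 to -1.20) and -2.87 over TOTAL (-3.27 to -2.49). Its interval over BO is the widest of the set for counting error, while between IP libraries Pecam1 spread more.

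Lyz2 encodes the lysozyme of macrophages and lies at chr10:117277331-117282321 on the minus strand (ENSMUSG00000069516.8). Per kilobase it was the most abundant member in the extract, at 2230 against 1972 for Acta2 with the longest transcripts, an order that turns round with the median transcript of Acta2. Its means were 2934 in TOTAL, 1369 in INPUT and 89.5 in BO, and the IP libraries stood at 154, 167 and 199.8. They were above BO and far below INPUT. These levels gave IP log2 ratios of 0.95 over BO (0.70 to 1.20), -2.59 over INPUT (-2.71 to -2.46) and -3.69 over TOTAL (-3.81 to -3.57). With a level 12.9-fold lower in IP than in the extract, Lyz2 had the lowest ratio to TOTAL of the 10 members.

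Its neighbour Lyz1, the Paneth cell lysozyme gene, is nearly identical in parts. Of the 1242 stretches of 75 bases in the Lyz2 transcript, 74, or 5.96%, also occur in Lyz1. Reads from these have more than 1 place in the genome. One coding stretch that both genes hold is shown, from exon 3 of Lyz2 at chr10:117278647-117278721 and exon 3 of Lyz1 at chr10:117289123-117289197 (mm10, minus strand, GENCODE M21), with no base in capitals because none differs.
Lyz2 and Lyz1: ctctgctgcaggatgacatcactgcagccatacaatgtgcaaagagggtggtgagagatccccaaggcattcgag
Lyz1 was itself low, with means of 20.4 in TOTAL, 10.96 in INPUT and 0.48 in BO and 9 reads over the 3 IP libraries. No 75-base stretch in the longest transcripts of the other 9 members occurred in another gene's annotated transcripts.

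Against beads alone, 6 of the 10 members were at least 2-fold higher in IP: Myh11, Pecam1, Vwf, Csf1r, Adgre1 and Cd68. In that comparison 43.9% of all genes tested were called higher and 11.2% lower, and no member was called lower. The members' range, 0.72 to 1.66, lay almost wholly within the interquartile range over all genes, -0.15 to 1.58, with 8 members above the median gene and 2 below it. Members were also set against the median of their own length class, by longest annotated transcript. These medians ran from 1.41 for the shortest to 0.05 for the longest of 5 classes. By that length, the 5 longest members lay above their class median and the 5 shortest below. Of the 40 genes of the 3 wider lists below that passed the minimum, 20 had ratios below 0, so the positive sign of all 10 members did not extend to other markers of these cells. When ratios were taken relative to the median gene, whose shift is 0.81, no member was 2-fold higher.

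Against INPUT, 7 members were called lower, namely Tagln, Cnn1, Vwf, Csf1r, Adgre1, Cd68 and Lyz2, and none higher. Over all genes 14.6% were called lower and 20.5% higher. Against TOTAL, 6 members were called lower, namely Acta2, Tagln, Cnn1, Adgre1, Cd68 and Lyz2, and none higher, where 26.2% of all genes were called lower and 20.4% higher. For 8 members, all but Myh11 and Pecam1, each IP library lay below both the INPUT and the TOTAL mean. The 3 comparisons share the IP libraries and are not independent of each other.

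**Figure D2:**
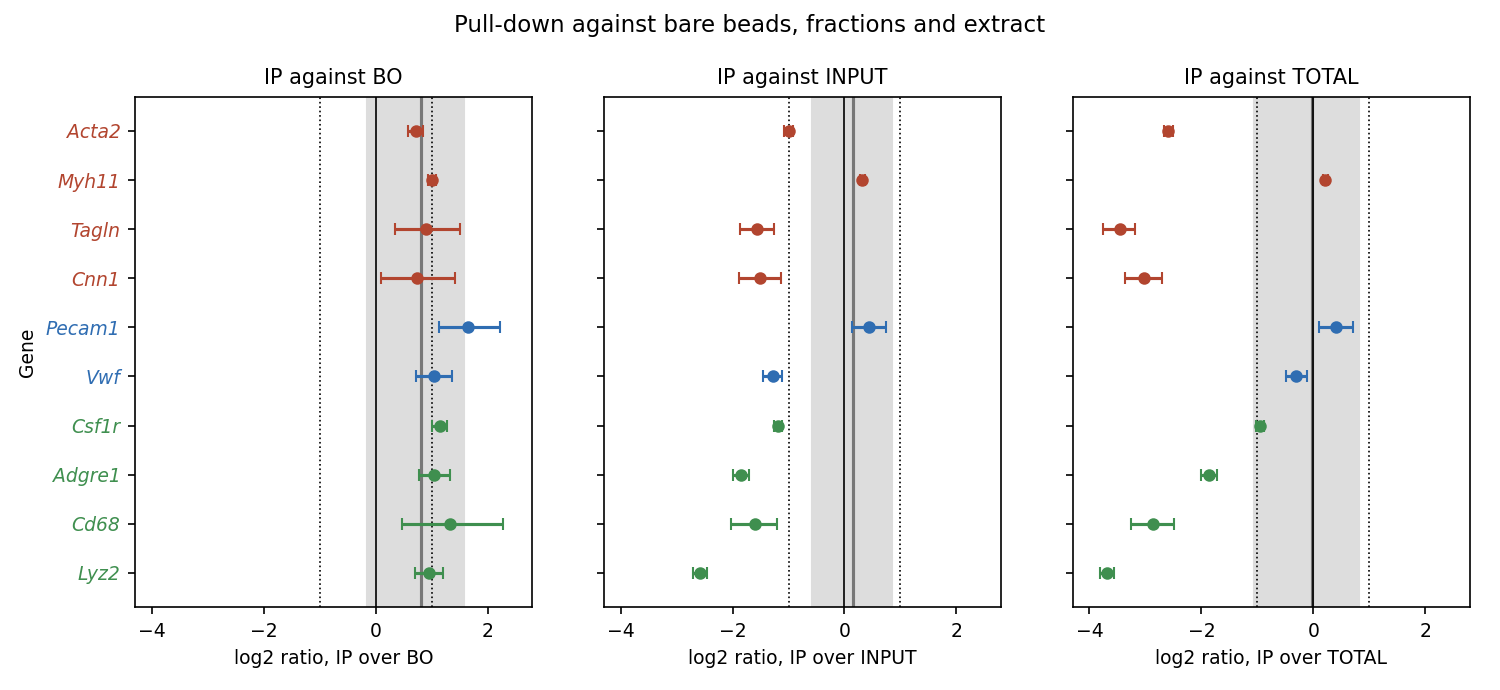
Log2 ratios of the 10 genes in IP over BO, INPUT and TOTAL, with bars for the 95% counting interval; the grey band is the interquartile range and the grey line the median over all genes, and dotted lines mark 2-fold. The points lie from 0.72 to 1.66 over BO and, apart from Myh11 and Pecam1, from -2.59 to -0.999 over INPUT.

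The step before the pull-down already divided the members. INPUT and TOTAL stand in different tables that were normalized separately, so their levels were joined through the IP means both hold and are only described. On that joined scale 5 members were at least 2-fold lower in INPUT than in TOTAL: Tagln at -1.90, Acta2 at -1.59, Cnn1 at -1.52, Cd68 at -1.25 and Lyz2 at -1.10. With the median gene at 0, Lyz2 stood at -0.94 and 4 members were called. Over all genes 18.1% were called lower and 2.21% higher. Myh11, Pecam1, Adgre1 and Csf1r lay between -0.10 and 0.23, and Vwf was higher in INPUT by 0.99, just short of a call.

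By longest annotated transcript, these 5 lower members were the 5 shortest. Their longest annotated transcripts ran from 1230 to 2381 nt, those of the other 5 from 3238 to 8834 nt. The log2 ratios of INPUT over TOTAL ran from -1.90 to -1.10 in the short group and from -0.10 to 0.99 in the long group, without overlap. The same direction held over all genes, where the shortest of 5 equal length classes, up to 1954 nt, had a median of -1.07 and the longest, above 5261 nt, a median of 0.49. Spearman's rho between this ratio and length was 0.73 over the 10 members and 0.65 over 14137 genes. With the median transcript it was 0.38 and 0.37. By that length the split did not hold, since Adgre1 at 917 nt, not called lower, was shorter than Acta2 at 1430.5 nt. These points share libraries and are a description.

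Against TOTAL, IP followed length in the members more closely still, with a rho of 0.82, against 0.42 over 14567 genes, or 0.73 and 0.23 with the median transcript. The short members lay between -3.69 and -2.59 and the long ones between -1.86 and 0.41. All 10 but Pecam1 lay below the median of their own length class, which ran from -1.19 for the shortest to 0.66 for the longest. Against INPUT, rho was 0.06 over 14309 genes, with class medians from -0.07 to 0.22, but 0.61 over the 10 members and 0.75 with the median transcript. The short members had a median of -1.56 and the long ones of -1.19, and their ranges overlapped. The 8 members below INPUT included short transcripts such as Lyz2 and long ones such as Vwf and Csf1r. The part of transcript length in the members' ratios was not tested.

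**Figure D3:**
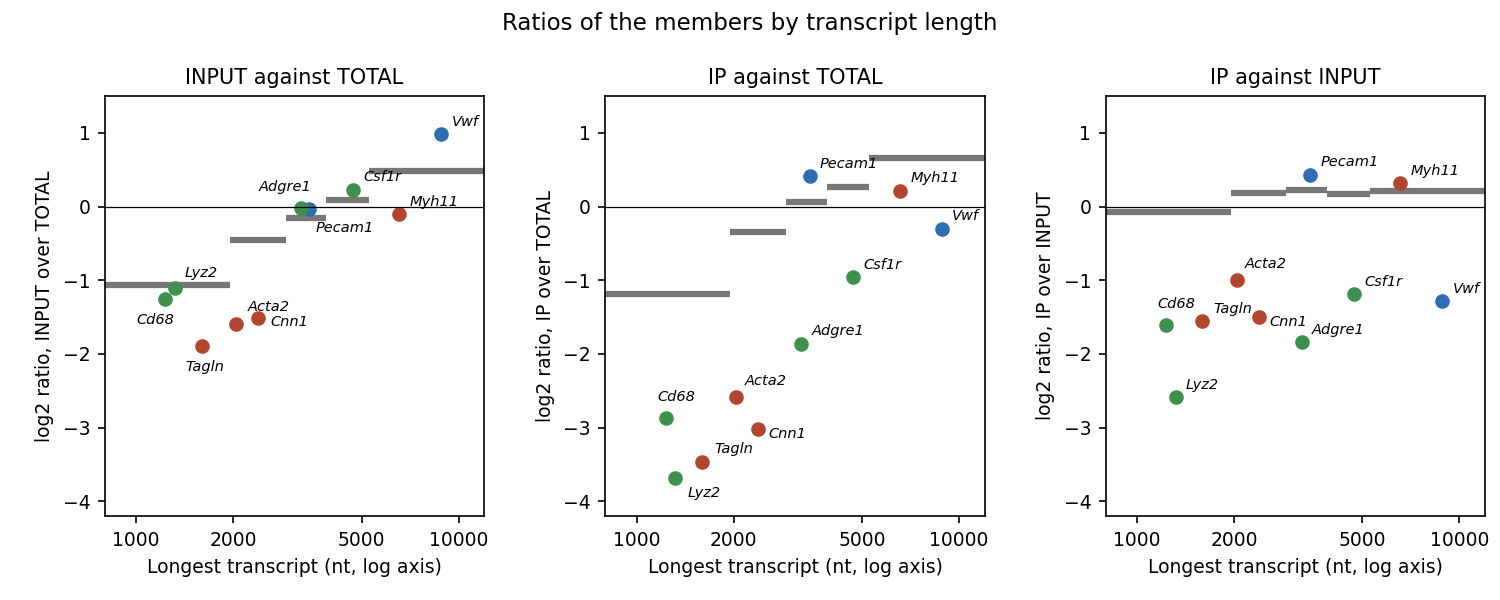
Log2 ratios of INPUT over TOTAL, IP over TOTAL and IP over INPUT against the length of the longest annotated transcript on a log axis; points are the members (red smooth muscle, blue vessel, green macrophage), and grey bars are medians of all genes in 5 length classes. Members up to 2381 nt lie at -1.10 or lower in INPUT over TOTAL, and 8 of the 10 lie below every grey bar in IP over INPUT.

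Relative to the fractions, RNAs of the 10 members were low on bare beads. On the joined scale, again across separately normalized tables, all 10 members were lower in BO than in INPUT, and 9 of them, all but Myh11, at least 2-fold. Pecam1 lost this call with a pseudocount of 10, at -0.93, and with the median gene at 0, at -0.66. Over all genes 34.2% were called lower and 9.49% higher. By longest annotated transcript, class medians ran from -1.365 for the shortest to 0.224 for the longest of 5 classes. The median of the members was -2.33, against -0.56 over 13747 genes, and all 10 lay below that gene median. Lyz2 was lowest at -3.53, followed by Cd68 at -2.92 and Adgre1 at -2.89. Tagln, Csf1r, Vwf and Cnn1 lay between -2.47 and -2.23, Acta2 at -1.72, Pecam1 at -1.22 and Myh11 highest at -0.69. This comparison and that of IP with INPUT share the INPUT means, and it shares the BO means with that of IP and BO.

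Further genes were read from 3 wider lists, of 16 peritubular and smooth muscle genes, 16 vessel genes and 18 macrophage genes, the last including Lyz1, which is not a defining macrophage marker. As in the members, IP was mostly below INPUT: of 47 genes past the minimum, 43 had ratios below 0, 27 were at least 2-fold lower (14.6% of all genes) and none was 2-fold higher (20.5% of all genes), with a median of -1.20. Unlike the members, they were not generally above BO: of 40 past the minimum, 4 were 2-fold higher, where 43.9% of all genes were, and 4 were 2-fold lower, near the 11.2% of all genes, with a median of -0.04. Against TOTAL, 36 of 49 were 2-fold lower and none higher, beside 26.2% and 20.4% of all genes. For BO over INPUT on the joined scale, 23 of 46 were 2-fold lower and 2 higher, beside 34.2% and 9.49% of all genes. Their median was -1.001, against -2.33 for the members. The 2 higher were Ptprb at 1.767 and Ptprc at 1.068.

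In the peritubular and smooth muscle list, the medians were 0.04 over BO and -0.95 over INPUT. The highest ratios over BO were those of Des, the intermediate filament protein desmin, at 1.32, and Myl9, a regulatory myosin light chain, at 1.23. The lowest were those of Rgs5, a pericyte marker, at -1.40, and Cald1, the actin-binding caldesmon, at -1.35. All 4 were below INPUT, at -0.71, -1.36, -1.92 and -2.16. Desmin and the myosin light chain stood between BO and INPUT, as did 8 of the 10 members and further genes of this list. Of the 15 genes past the minimum over BO, 8 had ratios above 0 and 7 below 0.

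In the vessel list, the medians were 0.11 over BO and -1.24 over INPUT. Of 11 genes past the minimum over BO, none was 2-fold higher, beside 43.9% of all genes. Robo4 at 0.86 and Eng at 0.54 were highest. Robo4 is a guidance receptor of endothelium and Eng the co-receptor endoglin. Ptprb, the endothelial phosphatase VE-PTP, was lowest over BO at -2.53, with means of 933 in BO and 160 in IP, followed by the transcription factor gene Sox17 at -0.83. Pecam1, at 1.66 over BO and 0.43 over INPUT, lay above every gene of this list past the minimum in both ratios. Without 1 of the IP libraries its ratio over INPUT was 0.065. With all 3 libraries, Tek at 0.29 and Erg at 0.22 were the highest of the list over INPUT. Their ratios without that library were not computed, so the place of Pecam1 without it is not known.

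In the macrophage list, the medians were -0.15 over BO and -1.63 over INPUT, and 17 of 18 genes, Lyz1 among them, were at least 2-fold lower in IP than in TOTAL, as were 26.2% of all genes. The complement genes C1qa and C1qc were highest over BO at 1.07 and 0.68. Ptprc, the pan-leukocyte antigen CD45, was lowest at -2.03, followed by the integrin gene Itgam at -0.95. All 4 were below INPUT, at -1.91, -1.78, -0.96 and -1.63. None of the 17 genes past the minimum was above INPUT, nor was any of the 4 macrophage members.

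Lists of other testis cells placed these values. Markers of Sertoli cells had medians of -0.08 over BO and -1.60 over INPUT, with Trf at 1.61 and Gata1 at 0.88 highest and Kitl at -3.09 and Wt1 at -1.60 lowest over BO. Markers of Leydig cells had medians of 0.44 and -1.76, with Cyp17a1 at 1.53 and Cyp11a1 at 1.39 highest and Lhcgr at -2.74 and Hsd17b3 at -1.23 lowest over BO. The members' median over INPUT, -1.39, lay in the same direction. For BO over INPUT, 9 of 10 Leydig markers were 2-fold lower and none higher, with a median of -1.925. Of 12 Sertoli markers 8 were lower and 3 higher, with a median of -1.328. Over all genes these shares were 34.2% and 9.49%. Markers of spermatocytes lay apart, with medians of 3.06 over BO and 2.14 over INPUT. Of these 16 genes, 15 were 2-fold higher than BO, against 43.9% of all genes, Sycp3 at 3.94 and Syce3 at 3.68 most, and Rec8 at 1.39 and Mlh3 at 0.49 least. All 16 were above INPUT, as Myh11 and Pecam1 were among the members, but 14 of them by 2-fold or more, against 20.5% of all genes and none of the members. Of 10 spermatid markers, 2 passed the minimum over BO, Spaca1 at 2.10 and Tssk1 at 1.87, the latter with means of 5.91 in BO and 24.2 in IP. Over INPUT 3 passed it, with ratios from -0.77 to 1.48, 1 of them 2-fold higher. Over TOTAL 5 passed it, with a median of -3.63. Of these, 3 were 2-fold lower and 1 higher, beside 26.2% and 20.4% of all genes.

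**Figure D4:**
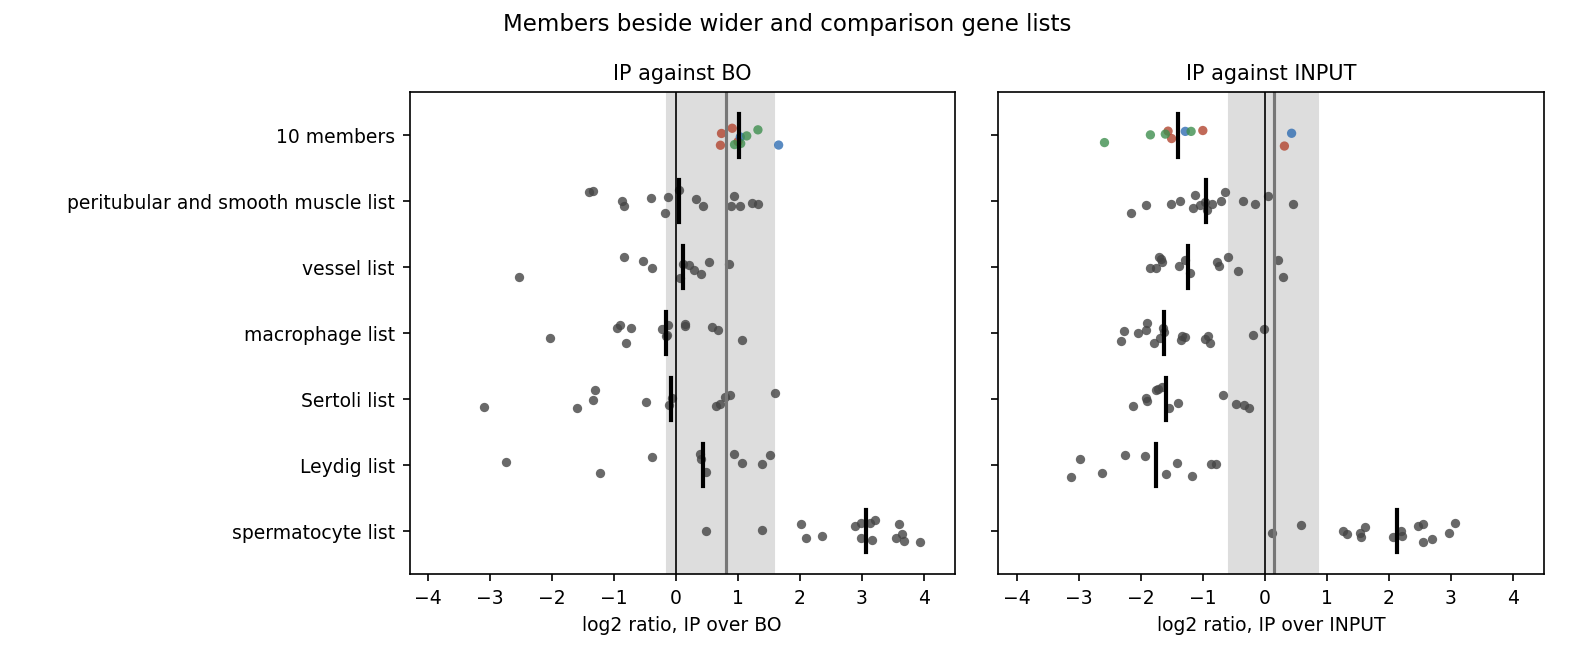
Log2 ratios of IP over BO and IP over INPUT for the 10 members (red smooth muscle, blue vessel, green macrophage) and for the genes of wider and comparison lists; black bars are list medians, and the grey band and line are the interquartile range and median over all genes. The spermatocyte list has medians of 3.06 and 2.14, whereas the members have medians of 1.02 and -1.39.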

How the data were processed

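RNA-seq gene tables of TOTAL, INPUT, BO and IP, 3 libraries each, were used. Per the labels, the authors used STAR v2.6.0c, the mm10 genome and DESeq2 v1.24.0. The deposited signal is the mean of normalized reads per group in each of 3 tables, IP against BO, INPUT and TOTAL. The same tables hold the authors' fold changes, errors and p-values, which were not used. The gene annotation is not given in the sources used here. Rows that name no gene took 22.1% (IP) to 38.6% (TOTAL) of the summed means and were left out.

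Log2 ratios used a pseudocount of 1, a minimum average mean of 10 and a 2-fold line. Tables were joined through the median ratio of their IP means, 0.763 for INPUT and 0.766 for TOTAL. IP reads per library were solved from the 3 IP means of each gene, rounded to 3 decimals, with 1 solution for 97.72% of 19150 genes, all 10 members included. Both steps were tested on simulated data. Fewest and most reads in other groups come from the smallest and largest value 1 read adds to a mean. Lengths and sequences are from GENCODE M21, matched for 20708 genes. Python 3.11.15, pandas 2.3.3, numpy 2.4.6 and scipy 1.17.1 were used.

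The members and lists were chosen with earlier results of these data known. All 10 members are named, and from each wider or comparison list the 2 highest and 2 lowest ratios of IP over BO. Outside this rule, Tek and Erg are named for comparison with Pecam1, and Lyz1 for its shared sequence with Lyz2. The edgeR test planned for values per library was not run, since the tables hold group means. Alternatives were other pseudocounts, minimums, scalings and joins, and leaving out each IP library, the last chosen after seeing the data.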

Additional observations from a re-analysis of the deposited data

How the results depend on the processing

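No called ratio of a member changed sign under an alternative that gave it a value. A minimum of 100 leaves out members and changes no ratio, and leaving out a library was run only for the IP comparisons. Shares of all genes called are given for the reported settings only, so the counts under alternatives have no such share beside them. A change of scaling moves the ratios of all genes, not of the members alone. The count of members 2-fold higher in IP than in BO was 6 as reported, 3 of the 5 members left with a minimum of 100, 2 with a pseudocount of 10, 0 with the median gene at 0 (median 0.21), and 2 with groups scaled to the sum of gene means, a shift of 0.29 over BO, 0.53 over INPUT and 0.52 over TOTAL. The 2-fold lower count against INPUT was 4 of the 6 members left with a minimum of 100, and 8 of 10, Acta2 added, with a pseudocount of 0.1, the median gene at 0 or scaling to summed means. With a minimum of 100 the members' median was -1.24 over INPUT and -2.59 over TOTAL, and with scaling to summed means -1.91 and -2.74. For INPUT over TOTAL, Vwf became the 1 member called higher with the median gene at 0 or scaling to summed means, and the median moved to -0.44 with the former. For BO over INPUT the median moved to -2.005 with a pseudocount of 10 and -1.77 with the median gene at 0, and 5 of the 6 members left with a minimum of 100 were called lower. Of 50 ratios of single members, 9, each within 2-fold as reported, changed sign under at least 1 pseudocount, minimum, scaling or join. Under the same settings 11 changed side of the 2-fold line. Among the 11, with the median gene at 0, were Lyz2 in INPUT over TOTAL (-0.94, 4 members called lower) and Pecam1 in BO over INPUT (8 members called lower). These counts do not include leaving out an IP library. Without 1 of those libraries Lyz2 over BO, not called as reported, reached 1.025. Leaving out each IP library gave 4 to 6 members higher than BO, 7 to 8 lower than INPUT and 6 to 7 lower than TOTAL, with medians of 0.98 to 1.02, -1.46 to -1.30 and -2.35 to -2.13. No paired analysis was possible because the tables hold group means, and the recovered IP libraries carry no replicate number. For the same reason no library of TOTAL, INPUT or BO could be left out. Depth limits Cd68, Cnn1 and Tagln most, with 64 to 114 IP reads.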
